A study of Rattus norvegicus with 21 samples.

Results

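The transcripts of 10 genes of transforming growth factor beta (TGF-β) signalling were followed in the rat heart 24 h after coronary ligation. They were the ligand genes Tgfb1, Tgfb2 and Tgfb3, the activin subunit gene Inhba, the receptor genes Tgfbr1 and Tgfbr2, the signalling genes Smad3 and Smad7, and the matricellular response genes Ccn1 and Ccn2. They were located by symbol. All 10 were found among 17085 gene symbols, and all 10 were among the 11742 genes that passed a filter on low counts. Inhba passed that filter through the injured hearts only, since 3 sham libraries held 12 Inhba reads in all.

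The 21 libraries were bulk mRNA from Sprague Dawley rats, with 3 libraries in each of 7 groups. Sham animals were the controls. By the study's design, a ligature closed the left anterior descending artery for 24 h in MI24h. The design describes closure for 1 h or 6 h followed by reperfusion, with tissue taken 24 h after the start, and the titles MI1h_R and MI6h_R were read as these groups. The group field of the labels lacks their R mark, and a duration of reperfusion is not stated for them. The groups MI24h-F, MI1h-23h-F and MI6h-18h-F carried the letter F, and in the last 2 names the ischaemia of 1 h or 6 h is followed by 23 h or 18 h. The labels do not spell F out. According to the study's design, fenofibrate, which activates the nuclear receptor PPARα, was given beforehand, and no sham group with F was analysed here. All tissue was labelled as infarct zone, Sham included. Age, sex and whether each library came from its own animal are not stated, so p-values measure the spread between libraries, which may be technical.

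TGF-β is secreted in a latent complex and held in the matrix until it is activated. The active ligand binds the type II receptor Tgfbr2, which recruits and phosphorylates the type I receptor Tgfbr1, and that kinase phosphorylates Smad2 and Smad3. Smad7 is induced by the pathway and blocks it at the receptor. Activins, dimers of Inhba products, use their own receptors but the same Smads. In the infarcted heart the pathway is known for damping inflammation and for turning fibroblasts into matrix-producing cells. Ccn1 and Ccn2 encode secreted matricellular proteins and are standard readouts both of TGF-β and of the mechanosensitive coactivators YAP and TAZ, which act through TEAD factors.

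The promoters of Ccn1 and Ccn2 are shown because these 2 response genes rose in each injury and were lower on average in the F groups. In that average over F, the calls among the members were near the share of all genes. Each run is 250 bases that end just before the transcript start, read 5′ to 3′ on the minus strand, from RefSeq on the GRCr8 build. Capitals mark the letters GGAATG or their reverse complement CATTCC, the core that TEAD factors are known to bind, searched on both strands.
Ccn1, chr2:237225690-237225939: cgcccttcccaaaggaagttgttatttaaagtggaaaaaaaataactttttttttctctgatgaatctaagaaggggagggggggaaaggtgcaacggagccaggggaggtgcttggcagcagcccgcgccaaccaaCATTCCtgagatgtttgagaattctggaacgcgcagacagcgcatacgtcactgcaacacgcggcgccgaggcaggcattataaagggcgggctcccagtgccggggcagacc
Ccn2, chr1:22624615-22624864: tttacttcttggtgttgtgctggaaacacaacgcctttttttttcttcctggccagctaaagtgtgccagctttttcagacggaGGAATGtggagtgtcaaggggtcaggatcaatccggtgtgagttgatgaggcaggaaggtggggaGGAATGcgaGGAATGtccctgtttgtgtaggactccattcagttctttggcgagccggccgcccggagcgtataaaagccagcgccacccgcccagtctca
Ccn1 held 1 match, beginning 113 bases before the start, and Ccn2 held 3, beginning 166, 101 and 92 bases before it. In 12.1% of 33469 RefSeq promoters of this length there was at least 1 match, in 0.902% at least 2 and in 0.0807% at least 3. The windows of the other 8 genes held none. The letters CAGAC or GTCTG, part of the Smad3 binding core, stood 2 times in Ccn1, once in Ccn2 and in none of the other 8, and 42.9% of all promoters held them. A match describes the letters of a window and not a bound site.

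Values are CPM, the share of a library's counts after TMM scaling, unless TPM, which is also per transcript length, is named. Library totals ran from 12208041 to 18393795 counts. The sham libraries stood apart: mitochondrial-genome transcripts took 36.3 ± 2.54% of their counts (SD, n = 3) against 16.4 ± 2.52% in the 18 injured libraries, and their TMM factors were 0.535 to 0.677 against 0.996 to 1.17. A change against Sham is therefore relative to the middle of the genes. The median log2 change of all genes in MI24h, MI1h_R and MI6h_R was 0.07, 0.06 and 0.06 with TMM, 0.80, 0.82 and 0.91 with library size alone, and 0.92, 0.80 and 1.09 with log2(TPM + 1). Long genes also read low in 5 libraries. The median deviation of the longest genes (top quartile of length) minus that of the shortest (bottom quartile) was −0.75 in Sham 31, −0.63 in Sham 41, −0.39 in MI24h 41, −0.43 in MI1h_R 11 and −0.45 in MI1h_R 31 (log2), and −0.08 to 0.29 in the other 16. Calls of members that rest on these 5 are also given without them, an alternative chosen after seeing the data that leaves 1 library each in Sham and MI1h_R, assumed to vary like the other groups. By gene length, taken from counts over TPM, Tgfbr1, Smad3 and Smad7 were the longest members, at the 95.9th, 92.1st and 89.7th percentiles of the genes tested.

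**Figure D1:**
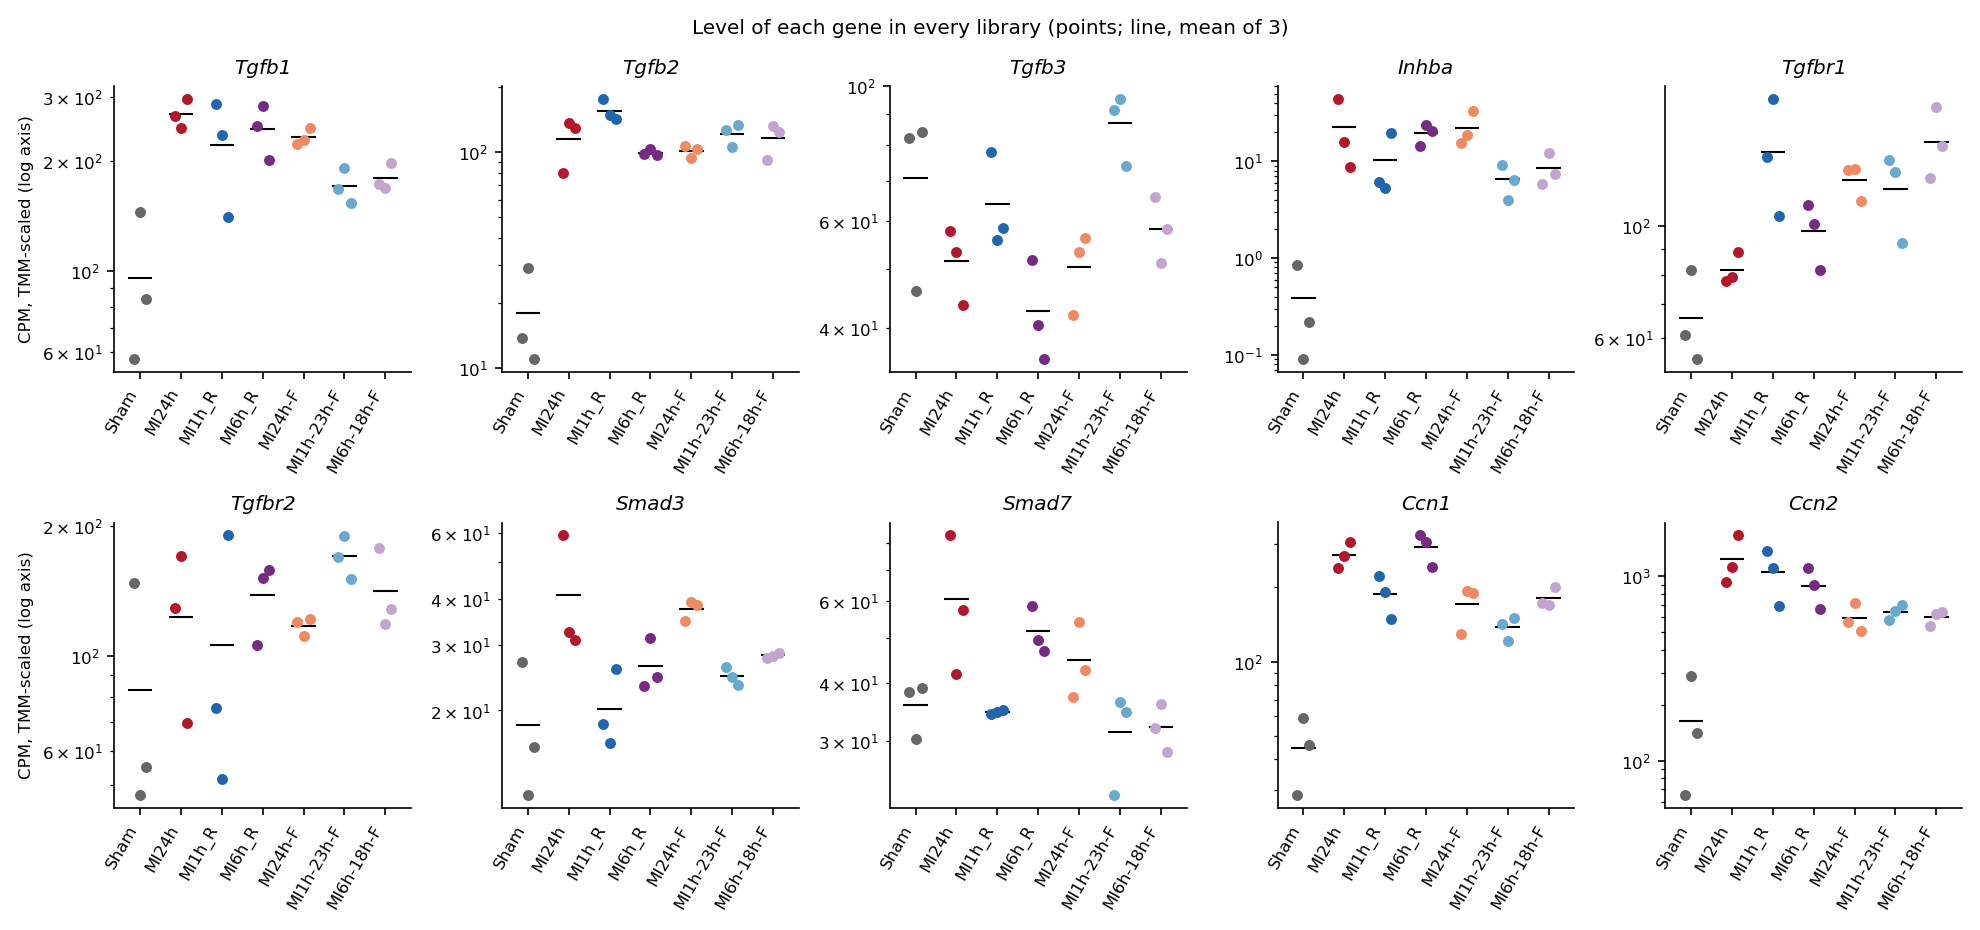
CPM (log axis, 1 scale per gene) of the 10 genes in each of the 21 libraries, with 1 point per library and a line at the mean of the 3 libraries of a group. Tgfb2, Inhba, Ccn1 and Ccn2 were above every sham library in all 18 injured libraries, while 8 of the 18 were above every sham library for Tgfbr2 and for Smad7, and 10 for Smad3.

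After injury the ligand genes moved apart: Tgfb1, Tgfb2 and Inhba rose in each of the 3 injuries without F, and Tgfb3 did not. Among all members, 7 rose and 0 fell in MI24h against Sham, where 54.3% of all genes tested were called (28.0% higher and 26.2% lower). In MI1h_R 6 rose and 0 fell, beside 49.5% of all genes called (25.4% higher). In MI6h_R 6 rose and 1 fell, beside 57.2% called (29.3% higher). Each count of rises includes Inhba, which passed the filter through the injured hearts only and could thus be called only upward. The median log2 change of the 10 was 1.33, 1.15 and 1.05. The same 3 sham libraries serve all 3 comparisons, which are thus not independent of each other. The calls are from edgeR's quasi-likelihood test at an adjusted p under 0.05.

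Tgfb1, the ligand made by platelets, macrophages and most other cells, read 57.5, 146 and 83.9 CPM in Sham. It read 266, 248 and 297 in MI24h, 288, 237 and 141 in MI1h_R, and 249.8, 285 and 202 in MI6h_R. Only the lowest MI1h_R library lay within the sham range, below Sham 31. The log2 change was 1.5 ± 0.27 (SE) in MI24h (edgeR adjusted p = 0.000159), 1.21 ± 0.27 in MI1h_R (0.00116) and 1.36 ± 0.27 in MI6h_R (0.000347), or 2.82-, 2.32- and 2.57-fold. Without the 5 libraries low in long genes it was 2.08, 1.22 and 2.05. The F groups read 154 to 247 CPM, all above the sham libraries. Sham 31 also had the highest summed CPM of 7 monocyte and macrophage markers among the sham libraries, 2739 against 676 and 682, and the injured libraries had 3005 to 8124. Of these 7 markers, 4 rose and 1 fell in MI24h, 5 and 1 in MI1h_R, and 6 and 1 in MI6h_R. Within MI1h_R the order was the other way: library 41 had the highest sum of these monocyte and macrophage markers, 5322, and the lowest Tgfb1. The part of these cells in the Tgfb1 levels was not tested. In bulk tissue, fewer cells of a type and less RNA per cell cannot be told apart.

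Tgfb2, the ligand best known from heart valve and cushion development, gave the clearest separation of the 3 isoforms. Sham read 13.8, 29.2 and 11.1 CPM. MI24h read 79.5, 136 and 129, MI1h_R 175, 148 and 142, and MI6h_R 98.0, 103 and 96.9. Every injured library, F groups included (91.9 to 133), was above every sham library. The change was 6.36-fold in MI24h (log2 2.67 ± 0.28, edgeR adjusted p = 8.76e-07), 8.57-fold in MI1h_R (3.10 ± 0.29, 1.32e-06) and 5.49-fold in MI6h_R (2.46 ± 0.28, 1.37e-06). The log2 changes were 2.89, 3.29 and 2.80 without the 5 libraries, and each was called.

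Tgfb3, the isoform tied to scar-poor repair, read 82.2, 46.0 and 84.0 CPM in Sham. It read 57.9, 53.5 and 43.7 in MI24h, 78.0, 55.9 and 58.4 in MI1h_R and 51.8, 40.6 and 35.7 in MI6h_R. The low sham library, 31, lay inside the injured range, so the groups overlapped. It fell in MI6h_R (log2 −0.73 ± 0.22, edgeR adjusted p = 0.00856), and the values in MI24h (−0.45 ± 0.22, 0.0877) and MI1h_R (−0.14 ± 0.22, 0.616) were not called. That fall depends on the scaling: with library size alone the change in MI6h_R was 0.14 and with log2(TPM + 1) it was 0.47, so Tgfb3 was lower than the middle of the genes there but not lower in share of the library. The call was also lost with only the 6 libraries compared (−0.77) and without Sham 41 (−0.57), and kept without the 5 libraries (−0.98, adjusted p = 0.00313).

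TPM allows levels of different genes to be compared, since it is per length. In Sham, Tgfb1 made up 65.9 ± 12.7% of the summed TPM of the 3 TGF-β isoforms (SD, n = 3), Tgfb3 28.1 ± 13.7% and Tgfb2 5.98 ± 1.83%. In MI24h the shares were 76.7 ± 3.69% for Tgfb1, 15.8 ± 4.01% for Tgfb2 and 7.49 ± 1.53% for Tgfb3. MI1h_R held 66.4 ± 6.62%, 23.5 ± 4.71% and 10.1 ± 2.01%, and MI6h_R 77.6 ± 2.23%, 15.6 ± 1.89% and 6.84 ± 1.13%. The order of Tgfb2 and Tgfb3 thus turned over between Sham and the injured groups. Tgfb2 took 4.01 to 7.64% in the sham libraries and at least 11.6% in each of the 18 injured ones. Averaged over the 18, its share was 13.0 percentage points above Sham, and leaving out each library in turn gave 12.04 to 13.9. The difference was 12.7 points without the 5 libraries, and Sham 11 alone held 54.4% Tgfb1, 6.29% Tgfb2 and 39.3% Tgfb3. A share within the isoforms does not depend on the scaling between libraries.

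**Figure D2:**
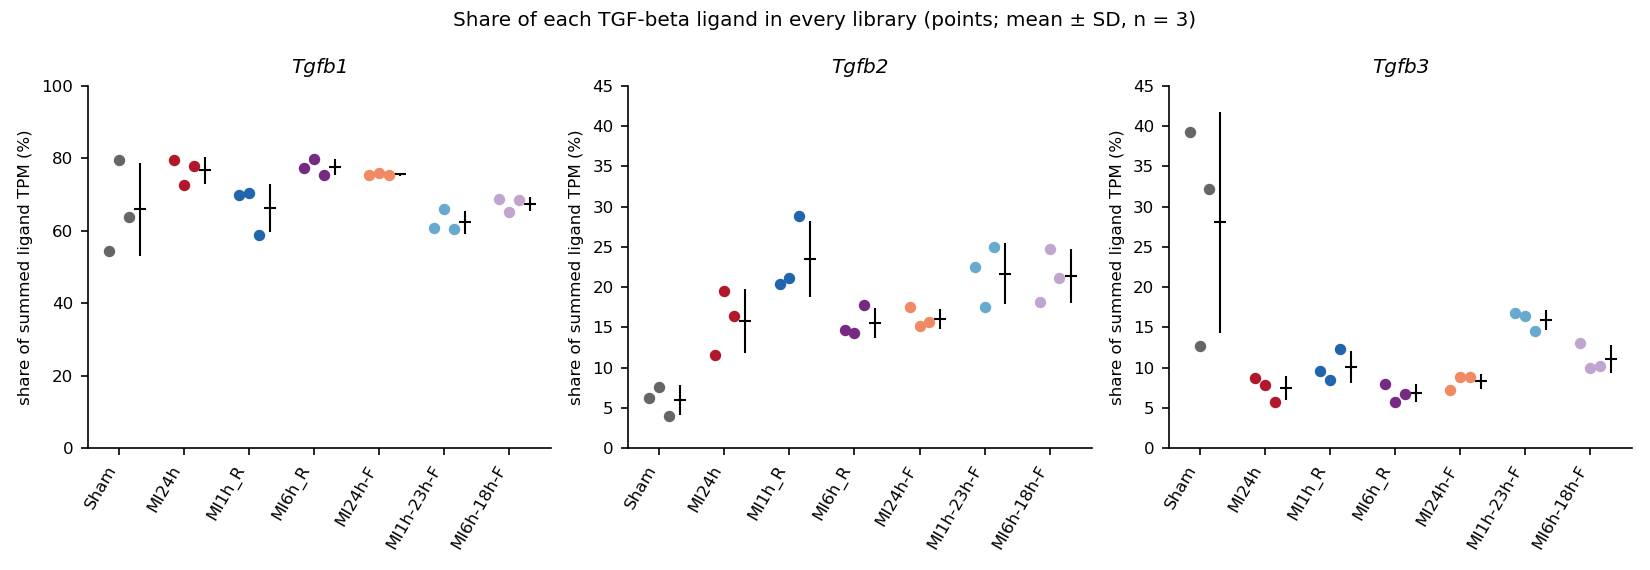
Share (percent) of the summed TPM of Tgfb1, Tgfb2 and Tgfb3 that each isoform took in the 7 groups. Points are libraries, and the larger marks with bars are the mean ± SD of 3 libraries. Tgfb2 points of the injured groups all sit above those of Sham, and Tgfb3 is highest in Sham, where its libraries scatter most.

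Inhba encodes the βA subunit of activin A. It had 9, 1 and 2 reads in the sham libraries, or 0.850, 0.0910 and 0.219 CPM, and the pooled sham level was 0.391 CPM (exact Poisson 95% interval 0.202 to 0.683, counting error only). MI24h read 44.1, 15.9 and 8.64 CPM, MI1h_R 6.06, 5.30 and 19.5, and MI6h_R 14.5, 23.6 and 20.6. All 18 injured libraries were above the sham libraries, but MI24h and MI1h_R libraries differed severalfold within their groups. Against the pooled sham level, the pooled MI24h level was 56.7 times as high (counting interval 32.3 to 110), MI1h_R 27.6 times (15.7 to 53.9) and MI6h_R 49.2 times (28.0 to 95.5). The fitted log2 changes were 5.84 ± 0.81, 4.70 ± 0.81 and 5.62 ± 0.81, each called by edgeR. Inhba passed the low-count filter through the injured libraries only. A call against Sham could thus only be upward, and these calls add no support. The log2 changes rest on single libraries in size and not in call: without Sham 11 they were 7.17, 6.03 and 6.97, without MI24h 11 the first was 4.95, and without MI1h_R 41 the second was 3.84. Without the 5 libraries they were 5.04, 4.44 and 4.47.

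Of the 2 receptor genes, Tgfbr1 rose in both reperfused groups and Tgfbr2 was not called against Sham. Tgfbr1, the type I receptor kinase, read 60.7, 81.7 and 54.5 CPM in Sham. It read 77.7, 79.1 and 88.6 in MI24h, 137, 178 and 105 in MI1h_R, and 109.8, 101 and 81.6 in MI6h_R. The MI1h_R libraries lay above Sham, those of MI24h mostly within its range, and 1 of MI6h_R within it. Tgfbr1 rose 2.13-fold in MI1h_R (log2 1.09 ± 0.21, edgeR adjusted p = 0.000286) and 1.48-fold in MI6h_R (0.57 ± 0.20, 0.0236), and the change in MI24h was not called (0.32 ± 0.20, 0.2). This gene is long, and both calls rest in part on libraries low in long genes. Those libraries did not all read Tgfbr1 low. MI1h_R 11 and 31 read 137 and 178 CPM against 105 in MI1h_R 41. MI24h 41 read 88.6, the highest of its group, and Sham 31 read 81.7, the highest sham value. Sham 41 went the other way, at 54.5, the lowest sham value. The cause of these differences was not tested. Without the 5 libraries the MI1h_R value was 0.72 (adjusted p = 0.0775) and the MI6h_R value 0.64 (0.0474), and with the trend of level on length removed the MI6h_R value was 0.18 and no longer called. The MI6h_R call was also lost in 4 of the 6 fits that left out 1 of its libraries, with values of 0.46 to 0.55 there.

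Tgfbr2, the type II receptor that binds the ligand, spread widely between the libraries of Sham, of MI24h and of MI1h_R, and read 111 to 122 CPM in MI24h-F. It read 148, 47.3 and 54.9 CPM in Sham, 129, 171 and 69.8 in MI24h, 75.5, 51.5 and 191 in MI1h_R, and 106, 152 and 159 in MI6h_R. Of the 18 injured libraries, 8 were above the highest sham library, Sham 11. The log2 changes of 0.57 ± 0.43, 0.35 ± 0.43 and 0.74 ± 0.44 were not called (edgeR adjusted p = 0.283, 0.531 and 0.157). The 5 libraries low in long genes were also the 5 lowest in Tgfbr2, at 47.3 to 75.5 CPM, and every other library read at least 106. Tgfbr2 itself is of middle length, at the 51.8th percentile of the genes tested, and the cause was not tested. The result depends on which libraries are used, in Sham above all. Without Sham 11 the changes were 1.27 in MI24h and 1.46 in MI6h_R, and both were called. When the 5 libraries are left out and Sham 11 is the 1 sham library that remains, they were −0.05, 0.30 and −0.13 in MI24h, MI1h_R and MI6h_R, with adjusted p of 0.897, 0.5 and 0.704. In TPM, Tgfbr2 stood at 25.1 ± 20.8 and Tgfbr1 at 6.24 ± 1.99 in Sham (SD, n = 3).

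Smad3, the receptor-regulated Smad that carries the signal to DNA, read 27.0, 11.8 and 15.9 CPM in Sham. MI24h read 59.1, 32.5 and 30.9, above every sham library. MI1h_R read 18.4, 16.4 and 25.8 and MI6h_R 23.3, 31.4 and 24.5, both overlapping Sham. It rose 2.24-fold in MI24h (log2 1.16 ± 0.27, edgeR adjusted p = 0.00156), and the changes in MI1h_R (0.15 ± 0.27, 0.678) and MI6h_R (0.53 ± 0.27, 0.101) were not called. The MI24h value was 0.68 without the 5 libraries and was not called (adjusted p = 0.0749).

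Smad7, the inhibitory Smad, read 38.2, 30.2 and 39.0 CPM in Sham. MI24h read 83.2, 41.8 and 57.5, MI1h_R 34.3, 34.7 and 35.0, and MI6h_R 58.8, 49.4 and 46.9. MI24h and MI6h_R lay above Sham, and MI1h_R lay inside its range with its 3 libraries close together. Smad7 rose in MI24h (1.70-fold, log2 0.76 ± 0.22, edgeR adjusted p = 0.00783). It missed the threshold in MI6h_R (0.53 ± 0.22, 0.0509) and in MI1h_R (−0.05 ± 0.22, 0.881). The MI24h call was lost without MI24h 11 (0.48), with only the 6 libraries compared (0.75) and without the 5 libraries (0.63, adjusted p = 0.185). MI24h 11 had the highest Inhba, Smad3 and Smad7 of the 21 libraries and also the highest summed CPM of 8 neutrophil markers, 2976 against 237 to 1443 in the other injured libraries and 21.4 to 75.8 in Sham. No neutrophil marker was at 0 in any group, and the part of these cells in the 3 genes was not tested.

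Both response genes rose in each of the 3 injuries. Ccn1, whose product binds integrins on the cell surface, read 28.6, 58.9 and 45.6 CPM in Sham. It read 240.5, 267 and 307 in MI24h, 223, 191 and 148 in MI1h_R, and 325, 305 and 242 in MI6h_R. Every injured library, F groups included, lay above every sham library. The change was 6.12-fold in MI24h (log2 2.61 ± 0.24, edgeR adjusted p = 3.39e-07), 4.22-fold in MI1h_R (2.08 ± 0.23, 3.33e-06) and 6.55-fold in MI6h_R (2.71 ± 0.24, 1.98e-07). They were 3.07, 2.31 and 3.30 on the log2 scale without the 5 libraries, all called.

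Ccn2, also known as connective tissue growth factor and a standard marker of fibrosis, was the most abundant member in the injured hearts. In TPM it stood at 600 ± 126 in MI24h, 477 ± 139 in MI1h_R and 498 ± 116 in MI6h_R (SD, n = 3), against 231 ± 6.33, 174 ± 53.1 and 243 ± 54.4 for Tgfb1. In Sham the TPM of Ccn2 (40.2 ± 29.7) and Tgfb1 (41.02 ± 20.8) did not differ beyond their spread. Its CPM was 64.9, 289 and 141 in Sham, 929, 1116 and 1660 in MI24h, 1368, 1113 and 691 in MI1h_R, and 1106, 895 and 663 in MI6h_R. All injured libraries were above Sham 31, the highest sham library. The change was 7.49-fold in MI24h (log2 2.90 ± 0.40, edgeR adjusted p = 1.13e-05), 6.41-fold in MI1h_R (2.68 ± 0.40, 3.36e-05) and 5.38-fold in MI6h_R (2.43 ± 0.39, 4.88e-05). Without Sham 31 the log2 values were 3.60, 3.38 and 3.15, and without the 5 libraries 3.90, 3.35 and 3.74.

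**Figure D3:**
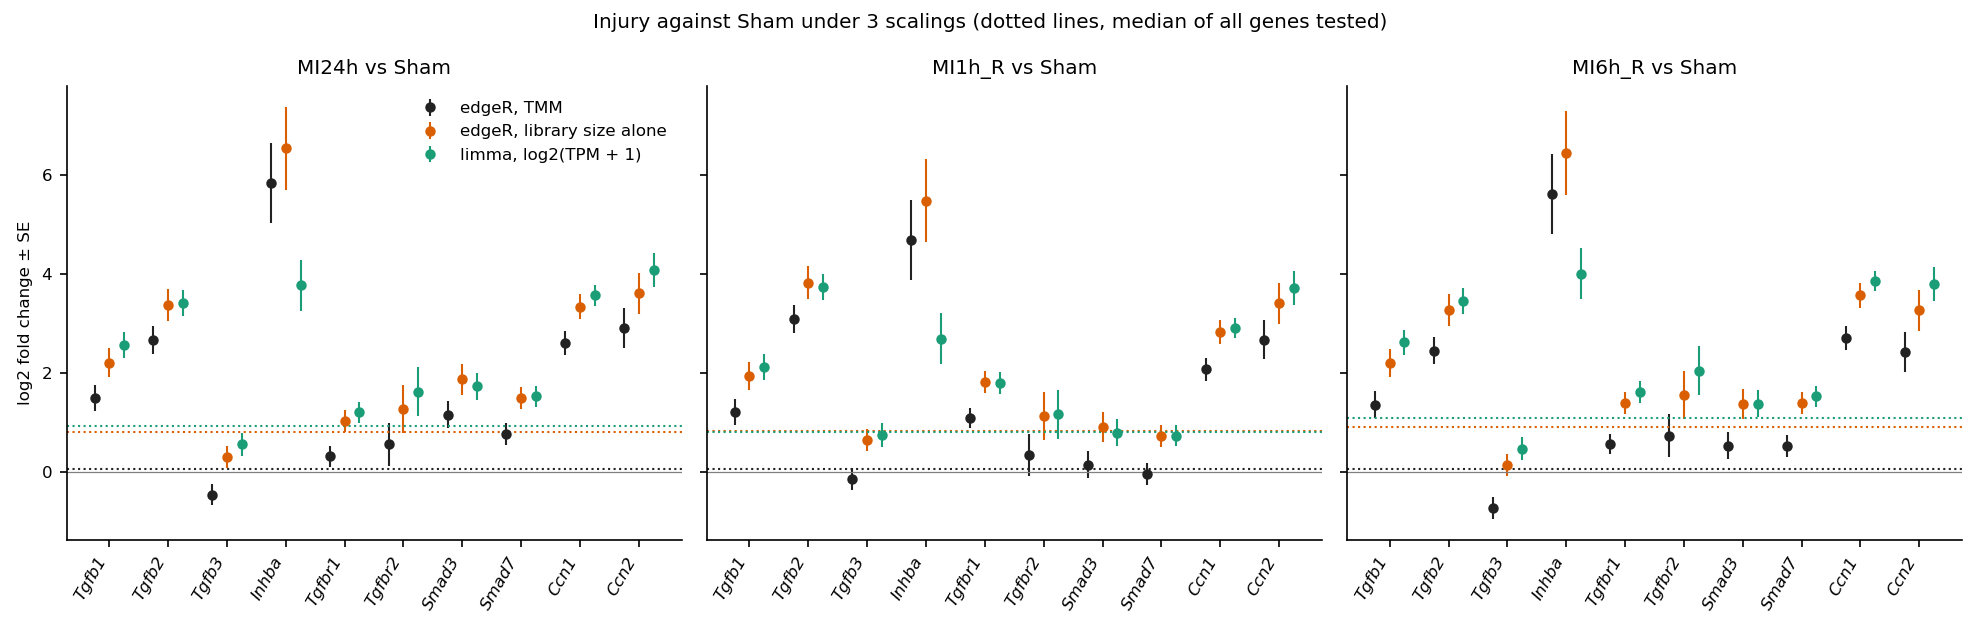
Log2 change ± SE of each member in MI24h, MI1h_R and MI6h_R against Sham (3 libraries a group) under TMM, library size alone and log2(TPM + 1), with a dotted line at the median of all genes under each scaling. Tgfb1, Tgfb2, Inhba, Ccn1 and Ccn2 lie above the dotted line of their scaling in all 3 panels, while Tgfb3 lies below it in each and changes sign between TMM and the other 2 scalings.

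Scaling changed how many members were called. With library size alone 9, 10 and 9 members rose in MI24h, MI1h_R and MI6h_R and 0 fell, beside 55.2%, 56.2% and 58.6% of all genes called higher. Among all genes, 3293 rose and 3078 fell in MI24h with TMM, against 6484 and 1504 with library size alone and 7134 and 1080 with log2(TPM + 1). In MI1h_R the splits were 2980 and 2829, 6597 and 1273, and 6610 and 1023. In MI6h_R they were 3438 and 3283, 6878 and 1510, and 7647 and 1047. The markers of other cells moved with these comparisons: 8 of 8 cardiomyocyte markers fell in MI24h, 7 in MI1h_R and 8 in MI6h_R, fibroblast markers fell for 7, 5 and 7 of 8, and neutrophil markers rose for 8, 7 and 7 of 8. Summed cardiomyocyte marker CPM was 45712 to 94952 in Sham and 1728 to 12838 in the injured libraries. The part of cell makeup in the members' changes was not tested.

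The wider pathway, in lists of 112 other genes of which 84 were tested, moved in both directions. In MI24h 43 rose and 18 fell, in MI1h_R 34 and 16, and in MI6h_R 40 and 17. Of all genes tested, 28.0%, 25.4% and 29.3% rose and 26.2%, 24.1% and 28.0% fell, and the counts of single lists below stand beside these shares. The list medians were 0.69, 0.45 and 0.67 (log2). With library size alone the counts were 56 and 7, 47 and 8, and 58 and 8, beside 55.2%, 56.2% and 58.6% of all genes called higher. Some of the genes named next were no longer called without the 5 libraries low in long genes. They were Acvr1 and Smad2 in each injury, Crebbp in MI24h and MI6h_R, Axl in MI24h and MI1h_R, Bmp2, Gdf15, Smad1, Nuak2 and Amotl2 in MI1h_R, and Acvr1b and Smad5 in MI6h_R.

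The genes below were picked within each injury, so a gene given for only some injuries can be called in the others as well. Calls added below for those others were not followed without the 5 libraries. Among the other superfamily ligands, 5 of 7 rose and 1 fell in MI24h, and 4 rose and 1 fell in MI1h_R and in MI6h_R. Bmp2, a bone morphogenetic protein, rose by 2.38 (log2) in MI24h, 1.27 in MI1h_R and 2.20 in MI6h_R, and the stress cytokine Gdf15 rose by 3.05, 1.79 and 2.78. Bmp6, which signals iron stores to hepcidin, fell in MI24h, MI1h_R and MI6h_R (−1.69, −2.16 and −2.15). Bmp1, called in MI24h (0.94 ± 0.18), is a protease of procollagen and not a ligand. The edgeR adjusted p of these calls was between 1.84e-06 and 0.00239.

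Genes of latency and activation split, with 6 of 12 up and 3 down in each injury. Ltbp2, a latent TGF-β binding protein family member of elastic fibres, rose from 13.1 to 147 mean CPM in MI24h (log2 3.49 ± 0.39, edgeR adjusted p = 1.22e-06), and by 2.99 in MI1h_R and 2.81 in MI6h_R. Of its relatives that tether latent TGF-β, Ltbp3 fell in MI24h, MI1h_R and MI6h_R (−0.88, −1.21 and −1.29). Ltbp4 also fell in each (−1.43, −1.56 and −1.35), in MI1h_R from 1040 to 353 mean CPM. Ltbp1, added here after its values were seen, was at −0.37, −0.02 and −0.40 in MI24h, MI1h_R and MI6h_R and was not called. Furin, the protease that cuts the TGF-β precursor, rose by 0.99 in MI24h, 0.65 in MI1h_R and 0.95 in MI6h_R. Itgav, the integrin αV subunit that pulls TGF-β from its latent complex, rose by 1.45, 0.82 and 1.23. The Ltbp2 values were larger without Sham 31, at 4.24, 3.74 and 3.57.

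Few of the other receptors were called, with 1 of 7 up in MI24h and MI6h_R, 0 in MI1h_R and 1 down in each. Acvr1b, the activin type I receptor, rose by 1.58 in MI24h and 1.35 in MI6h_R. Acvr1, a receptor for bone morphogenetic proteins, fell by 0.52, 0.55 and 0.70 with TMM, and with library size alone its values were positive (0.23, 0.23 and 0.16). Among Smads and nuclear partners 4 of 7 rose and 2 fell in MI24h, and 2 rose in MI1h_R and 3 in MI6h_R with none falling. Smad2, the partner of Smad3, rose by 0.45, 0.64 and 0.48. Smad1, which serves bone morphogenetic proteins, rose by 0.74 in MI24h and 0.42 in MI1h_R, its relative Smad5 rose by 0.98 in MI6h_R, and the coactivator Crebbp by 1.43 in MI24h and 1.26 in MI6h_R.

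Inhibitors of the pathway included the genes that bind activin. Of 14, 7 rose and 4 fell in MI24h, 6 and 5 in MI1h_R, and 7 and 5 in MI6h_R. Fst, the activin-binding follistatin, rose by 3.82 (0.597 to 8.76 mean CPM, edgeR adjusted p = 8.42e-07), 3.54 and 4.21. Fstl3, a secreted relative of follistatin, rose by 3.60 (10.5 to 129 mean CPM, 5.54e-07), 2.77 and 3.14. Inhba and both of its binding proteins were thus higher in each of the 3 injuries. Tgif1, a Smad corepressor, rose by 2.65 in MI24h, 1.67 in MI1h_R and 2.15 in MI6h_R. Dcn, a matrix proteoglycan that binds TGF-β and is also a fibroblast marker, fell in each injury (−1.91, −2.44 and −2.33). In MI1h_R it went from 1346 to 249 mean CPM.

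Response genes other than the members rose in 14 of 24 cases in MI24h, 13 in MI1h_R and 13 in MI6h_R, and 6, 3 and 5 fell. Among those that fell, Col3a1 (−2.59, −1.63 and −2.68) and Eln (−2.40, −1.76 and −2.17) did so in each injury. Col1a1 (−1.05 and −1.82), Col1a2 (−0.95 and −1.17) and Tagln (−2.29 and −1.10) fell in MI24h and MI6h_R. These matrix and contractile genes were named after their values were seen. Fn1, fibronectin, rose from 281 to 3268 mean CPM in MI1h_R (log2 3.54 ± 0.56, edgeR adjusted p = 6.08e-05) and to 4496 in MI6h_R (4.0 ± 0.57). These 2 values were 4.23 and 4.72 without Sham 31, and the second 3.05 without MI6h_R 21. Fn1 was also called in MI24h (3.84 ± 0.57). The transcription factor genes Snai1 (2.12, 1.36 and 2.07) and Junb (2.77, 1.34 and 1.94) rose in each injury.

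The list for YAP and TAZ had 10 tested genes. It held response genes and also Yap1, Wwtr1, Tead1 and Tead4, which encode YAP, TAZ and TEAD factors themselves. Of the 10, 5 rose and 0 fell in MI24h, 2 rose and 2 fell in MI1h_R, and 5 rose and 1 fell in MI6h_R. The kinase gene Nuak2 rose by 1.90, 1.28 and 1.66, and the receptor kinase gene Axl by 0.91, 1.04 and 1.43. In MI24h and MI6h_R, Wwtr1 rose by 0.84 and 0.74, Tead4 by 1.48 and 1.63, and the LIM protein gene Ajuba by 0.50 and 0.78. The response gene Ankrd1 was at 0.72, 0.53 and −0.18 in MI24h, MI1h_R and MI6h_R and was not called. Tead4 and Ankrd1 were added here after their values were seen. Amotl2 fell by 0.60 in MI1h_R with TMM and was at 0.19 with library size alone. Of the 3 other CCN family genes tested, 1 rose and 1 fell in each injury.

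Between the injuries without F, edgeR called members in MI1h_R against MI24h only. In simulated data for that comparison, edgeR found 8 of 50 changes of 1.5-fold and 23 of 50 changes of 2-fold. A member that was not called may therefore still differ. In MI1h_R against MI24h, Tgfbr1 was higher (1.71-fold, log2 0.78 ± 0.20, edgeR adjusted p = 0.0371), and Smad3 (0.496-fold, −1.01 ± 0.27, 0.0397) and Smad7 (0.57-fold, −0.81 ± 0.22, 0.0473) were lower, beside 4.32% of all genes called (1.51% higher and 2.81% lower). The 3 genes are the 3 longest of the 10. Within MI1h_R, Tgfbr1 was higher in libraries 11 and 31, which read low in long genes, than in library 41. Smad3 was lower in libraries 11 and 31 than in library 41, and Smad7 was nearly equal in all of them. The MI1h_R and MI24h libraries did not overlap for Tgfbr1, Smad3 and Smad7, nor for Tgfb2 and Ccn1, which were not called. The share of all genes without overlap was not taken, so this adds nothing to the calls. None of the 3 calls held in all of the alternatives: all 3 were lost without MI24h 11, with library size alone, with only these 6 libraries and without the 5 libraries low in long genes, where the values were 0.43, −0.81 and −0.82. Without MI24h 11 Smad3 was at −0.65 and Smad7 at −0.52.

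Of the remaining members, Inhba was at −1.15 ± 0.58 (adjusted p = 0.265) and Ccn1 at −0.54 ± 0.22 (0.18) in MI1h_R against MI24h with edgeR. The Inhba value was −0.25 without MI24h 11 and −2.01 without MI1h_R 41. Neutrophil markers fell for 3 of 8 in this comparison and smooth muscle markers rose for 3 of 6, and their part in the result was not tested. Of the 84 other pathway genes, 1 rose and 11 fell, and 0 were called with only these 6 libraries or without the 5. Tagln, a contractile protein gene of smooth muscle, rose from 27.1 to 125 mean CPM (2.20). Bhlhe40, Cdkn1a, Bmp2, Bmp4, Tgif1, Smurf1 and Wwtr1 fell by 1.27, 1.44, 1.11, 1.01, 0.98, 0.72 and 1.16.

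In MI6h_R against MI24h 0 members were called by edgeR, beside 0.502% of all genes, and 0 by DESeq2 and by limma on log2(TPM + 1). In edgeR 1 member was at an unadjusted p under 0.05, beside 996 of all 11742 genes. Smad3 had the largest of these log2 values, −0.63 ± 0.27 (edgeR adjusted p = 0.499). The 1 pathway gene called was Bhlhe40, a transcription factor gene, at 89.2 against 206 mean CPM (−1.21). In MI1h_R against MI6h_R 0 members were called by edgeR, beside 2.41% of all genes, 0 by DESeq2 and 2 by limma, beside 9.39% of all genes. At an unadjusted p under 0.05 in edgeR were 5 members, beside 2586 of all 11742 genes. The values were 0.64 ± 0.26 for Tgfb2, 0.59 ± 0.22 for Tgfb3, 0.52 ± 0.20 for Tgfbr1, −0.58 ± 0.22 for Smad7 and −0.64 ± 0.22 for Ccn1, with adjusted p from 0.117 to 0.167. Of the 84 pathway genes 3 fell, the cell cycle inhibitor gene Cdkn1a (−1.37), Wwtr1 (−1.06) and Grem1 (−2.43), which encodes an antagonist of bone morphogenetic proteins and was named after its value was seen. Neither Cdkn1a (−0.94) nor Wwtr1 (−0.77) was called without the 5 libraries.

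**Figure D4:**
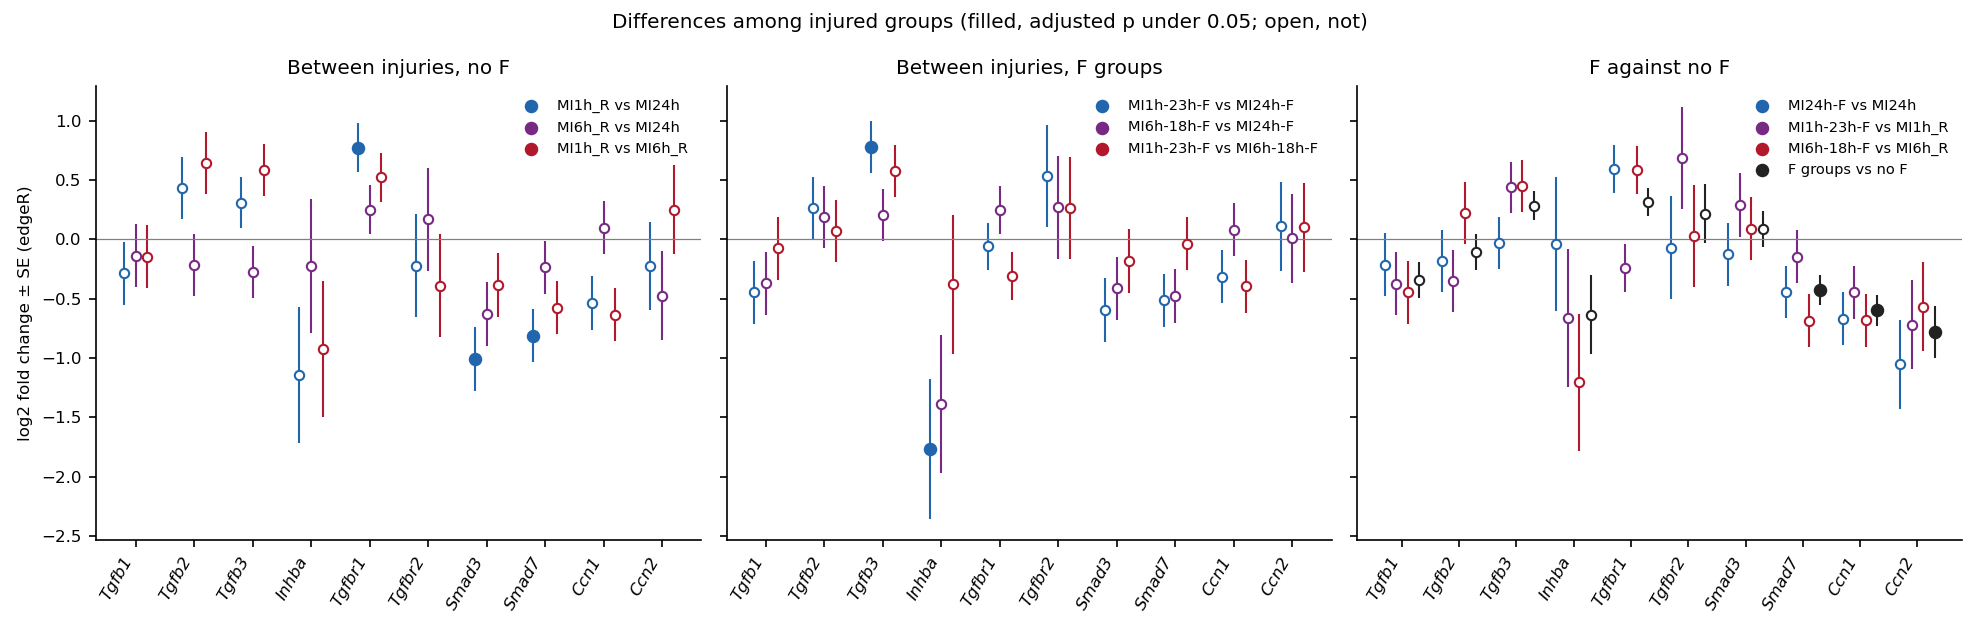
Log2 change ± SE of the 10 members from edgeR in 3 panels of comparisons: between injuries without F, between injuries with F, and F against no F. Filled points have an adjusted p under 0.05. Tgfbr1, Smad3 and Smad7 are filled in MI1h_R against MI24h, Tgfb3 and Inhba in MI1h-23h-F against MI24h-F, and Smad7, Ccn1 and Ccn2 in the average over F.

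In the F groups 2 of the 10 members, Tgfb3 and Inhba, were called in the same contrast, near the share of all genes given below. Whether this step differed from that without F has its own test in the next paragraph. Tgfb3 read 91.4, 95.3 and 74.0 CPM in MI1h-23h-F against 42.1, 53.3 and 56.2 in MI24h-F, without overlap, and rose 1.72-fold (log2 0.78 ± 0.22, edgeR adjusted p = 0.0231). Inhba read 9.21, 3.95 and 6.40 against 15.4, 18.5 and 32.9, also without overlap, and fell to 0.293-fold (−1.77 ± 0.59, 0.0489). Other members were without overlap here as well. The share of all genes without overlap was not taken, so this adds nothing to the calls. In this comparison 15.6% of all genes were called (8.87% higher and 6.74% lower). The Inhba call was lost whenever any 1 library was left out (−1.38 to −2.10). The Tgfb3 call was lost in 4 of 6 such fits (0.67 to 0.82), and both kept their calls without the 5 libraries, where Tgfb1 (−0.47) and Smad3 (−0.62) were called as well, beside 22.3% of all genes.

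Whether F altered the step from MI24h to MI1h_R in any member was tested as a difference of F effects, and 0 members were called by edgeR, by DESeq2 or by limma. In this comparison 0% of all genes were called. Tgfbr1 was the 1 member at an unadjusted p under 0.05 (−0.83 ± 0.29, edgeR adjusted p = 0.196), beside 1990 of all 11742 genes. The corresponding differences between MI6h and MI24h and between MI1h and MI6h also gave 0 members, beside 0% and 0.00852% of all genes called. Markers moved with the contrast in the F groups: 5 of 8 neutrophil markers fell, and 7 of 8 cardiomyocyte and 5 of 8 fibroblast markers rose. Their part was not tested. Of the 84 other pathway genes 8 rose and 8 fell in MI1h-23h-F against MI24h-F. In MI6h-18h-F against MI24h-F 0 members were called by edgeR, DESeq2 and limma, beside 0.485% of all genes in edgeR. There 2 members were at an unadjusted p under 0.05, beside 1104 of all 11742 genes. Inhba was at −1.39 ± 0.58 (edgeR adjusted p = 0.441) and Smad7 at −0.48 ± 0.22 (0.522). In MI1h-23h-F against MI6h-18h-F 0 members and 0% of all genes were called by edgeR, and DESeq2 and limma called 0 members. Tgfb3 (0.57 ± 0.22, edgeR adjusted p = 0.288) was the 1 member at an unadjusted p under 0.05, beside 1597 of all 11742 genes.

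Averaged over the 3 injuries, F groups had less of the 2 response genes and of Smad7. Ccn1 read 121 to 200.2 CPM in the 9 F libraries (median 169) and 148 to 325 (median 242) in the 9 without F, and fell to 0.66-fold (log2 −0.60 ± 0.13, edgeR adjusted p = 0.00251). Ccn2 read 502 to 718 (median 620.3) with F and 663 to 1660 (median 1106) without, and fell to 0.582-fold (−0.78 ± 0.22, 0.0126). Smad7 read 22.9 to 54.2 (median 36.1) with F and 34.3 to 83.2 (median 46.9) without, and fell to 0.745-fold (−0.43 ± 0.13, 0.0202). In each case the highest F libraries lay within the range of those without F. The 3 calls stand beside 27.1% of all genes called (11.3% higher and 15.7% lower).

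Of the other 7 members, Tgfb1 (−0.34 ± 0.15, edgeR adjusted p = 0.105), Tgfb3 (0.29 ± 0.13, 0.0997), Inhba (−0.64 ± 0.33, 0.168) and Tgfbr1 (0.31 ± 0.12, 0.0537) were not called, and Tgfb2, Tgfbr2 and Smad3 were at −0.11, 0.22 and 0.09. Leaving out the 5 libraries low in long genes, all of which are without F, changed this picture in part. Ccn1 was then at −0.41 (adjusted p = 0.0198) and Ccn2 at −0.44 (0.0218), Smad7 at −0.40 was no longer called (0.0797), and Tgfb3 (0.34, 0.0438), Inhba (−1.02, 0.0147) and Tgfbr1 (0.52, 0.00541) were called, beside 29.7% of all genes. The order of the sequencing or preparation of F and other libraries is not given, so a batch and F cannot be told apart. Fibroblast markers rose for 3 of 8 with F, red cell markers for 3 of 3 (median log2 1.88), and 1 of 8 neutrophil markers fell. Their part was not tested. Of the 84 other pathway genes 10 rose and 16 fell with F. Among them were 5 and 6 of 24 response genes and 0 and 4 of the 10 genes of the YAP and TAZ list.

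Within single injuries F moved no member past the threshold. In MI24h-F against MI24h, edgeR, DESeq2 and limma called 0, 3 and 1 members, beside 13.0%, 18.4% and 12.6% of all genes. In edgeR 3 members were at an unadjusted p under 0.05, beside 3419 of all 11742 genes. Ccn2 read 563, 718 and 502 CPM against 929, 1116 and 1660, a log2 value of −1.05 ± 0.38 (edgeR adjusted p = 0.0728), and Ccn1 129.5, 193 and 190.4 against 240.5, 267 and 307 (−0.67 ± 0.22, 0.0572). The groups did not overlap for these 2 members, among others. The share of all genes without overlap was not taken, so this adds nothing to the tests. Tgfbr1 was at 0.59 ± 0.20 (0.061). In MI6h-18h-F against MI6h_R, the 3 methods called 0, 3 and 2 members in the same order, beside 9.62%, 15.4% and 11.6% of all genes. Again 3 members were at an unadjusted p under 0.05 in edgeR, beside 3060 of all 11742 genes. Ccn1 was at −0.68 ± 0.22 (0.06), Smad7 at −0.69 ± 0.22 (0.0588) and Tgfbr1 at 0.59 ± 0.20 (0.0718). In MI1h-23h-F against MI1h_R 0 were called by edgeR, beside 0.0766% of all genes, and 0 by DESeq2 and limma. At an unadjusted p under 0.05 in edgeR were 0 members, beside 1917 of all 11742 genes. There Ccn2 was at −0.72 ± 0.38 and Ccn1 at −0.45 ± 0.22. Over the alternatives other than leaving out 1 library, Ccn2 ran from −0.74 to −0.07 and Ccn1 from −0.45 to −0.07. MI1h_R 41 lay within the range of MI1h-23h-F, at 691 CPM for Ccn2 (578 to 699) and 148 for Ccn1 (121 to 150). The edgeR values of Ccn1 and Ccn2 were thus on the lower side with F in each of the 3 injuries, least firmly in MI1h_R. No difference of F effects between injuries was called for a member by edgeR.

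The pair of response genes did not move in a fixed ratio. In TPM, Ccn2 stood at 2.84 ± 1.12 times Ccn1 in Sham (SD, n = 3), 3.72 ± 0.678 in MI24h, 4.60 ± 0.653 in MI1h_R and 2.51 ± 0.279 in MI6h_R. The MI1h_R and MI6h_R libraries did not overlap, and those of Sham spread across both. With F the means were 2.97, 3.90 and 2.75 in the same order of injuries. Smad7 stood at 2.33 ± 0.691 times Smad3 in Sham, 1.65 in MI24h, 1.93 in MI1h_R and 2.18 in MI6h_R, and at 1.29, 1.39 and 1.24 in the F groups. With the 5 libraries left out, Ccn2 stood at 1.88, 3.34 and 3.86 times Ccn1 in Sham, MI24h and MI1h_R, and Smad7 at 1.53, 1.46 and 1.48 times Smad3.

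Across the 18 injured libraries the members fell into no single course. On log2 CPM, the highest correlations between members were those of Inhba with Smad3 (r = 0.73), Tgfb1 with Ccn1 (0.72), Ccn1 with Ccn2 (0.69) and Tgfb1 with Ccn2 (0.67). The lowest were those of Tgfb2 with Smad3 (−0.67) and Tgfbr2 with Ccn2 (−0.62). These describe libraries that share groups, F and gene-length effects, and carry no test. Among 8105 genes, those most like each member were Hpcal1 and Cdk9 for Tgfb1 (0.88 and 0.86), Ndufaf3 and Mrps33 for Tgfb2 (0.82 and 0.81), and Tmem176b and Thbs2 for Tgfb3 (0.88 and 0.87). Inhba was most like Il13ra1 and Morc2 (0.91 and 0.90). For the receptors they were Stx7 and Atp6v1a (both 0.92 with Tgfbr1) and Utrn and Shroom4 (both 0.96 with Tgfbr2). Smad3 was most like Pfkfb3 and Zfp652 (0.96 and 0.93) and Smad7 like Junb and Dgat1 (both 0.91). Ccn1 was most like Eif3b and Atad3a (0.95 and 0.94) and Ccn2 like Fdx2 and Fbxo7 (0.93 and 0.91).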

How the data were processed

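Estimated counts and TPM per gene symbol were deposited by the authors for 21 libraries. Per the labels' protocols, mRNA was taken from DNase-treated total RNA, libraries were made with the NEBNext Ultra kit and sequenced on an Illumina HiSeq instrument. STAR 2.7.3a, RSEM 1.3.1 and the rn7 build are named in the submitters' processing notes; annotation and strand setting are not given in the sources used here. The estimated counts deposited by the authors were already whole numbers, so rounding changed none. No 2 libraries were identical, and no member shared its counts with another symbol. Titles set the groups where the group label lacked the reperfusion or F mark.

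The counts were fitted with edgeR 4.0.16 in R 4.3.3: filterByExpr (minimum count 10, minimum total 15), TMM, 1 term per group over all 21 libraries, quasi-likelihood test, Benjamini-Hochberg adjustment over 11742 genes, called at an adjusted p under 0.05. SE is the log2 change divided by the square root of F. With 3 libraries against 3, an exact permutation test could not go below p = 0.1, so none was used. TPM deposited by the authors served for levels between genes and shares, and for limma 3.58.1 on log2(TPM + 1) of genes with a mean TPM of at least 1, with TPM + 0.1 tried as well. The alternatives were DESeq2 1.42.0, other scalings, the unfiltered table, the table without mitochondrial-genome transcripts, fits restricted to the groups compared, a replicate block and leaving out each library. Removing the trend of level on gene length and leaving out 5 libraries were added and chosen after seeing the data. Correlations used log2 CPM over the 18 injured libraries and genes of mean CPM of at least 10.

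The edgeR, DESeq2 and limma steps were tested on simulated data with known changes. Named were the members, from each pathway list up to 3 called genes of smallest p and mean CPM of at least 5 in the comparisons without F, and the 2 genes most correlated with each member. One gene that this rule names is not reported here. The members and lists were chosen with earlier results of these data known. Of 112 list symbols 95 had a row and 84 were tested, and the rest were not analysed here. Promoter sequences are from RefSeq on GRCr8, with all 10 members matched by symbol. Figures were drawn with matplotlib 3.10.9.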

Additional observations from a re-analysis of the deposited data

How the results depend on the processing

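Depth limited Inhba in Sham, which had 12 reads in all. Counts of members called moved as follows. With library size alone they were 10 in MI1h_R against Sham, 0 in MI1h_R against MI24h, 1 in MI1h-23h-F against MI24h-F and 1 in MI6h-18h-F against MI6h_R. Of all 11742 genes, 6597 rose and 1273 fell in the first of these, 164 and 218 in the next, then 1142 and 586, and 327 and 670. DESeq2 called 3 in MI24h-F against MI24h and 3 in MI6h-18h-F against MI6h_R, beside 18.4% and 15.4% of all genes. limma on log2(TPM + 1) and on log2(TPM + 0.1) alike called 10 in MI1h_R against Sham, 1 in MI1h_R against MI24h, 2 in MI1h_R against MI6h_R, 1 in MI1h-23h-F against MI24h-F, 1 in MI24h-F against MI24h and 2 in MI6h-18h-F against MI6h_R. With only the groups compared the counts were 0 in MI1h_R against MI24h, 5 in MI1h-23h-F against MI24h-F, 2 in MI24h-F against MI24h, 2 in MI6h-18h-F against MI6h_R and 6 for F against no F, beside 0%, 30.9%, 12%, 9.42% and 31.2% of all genes. With the length trend removed they were 1 in MI1h_R against MI24h and 1 in MI6h-18h-F against MI6h_R. Of all 11742 genes, 229 rose and 374 fell in the first and 582 and 754 in the second. Without the 5 libraries low in long genes the counts moved in MI1h_R against MI24h, MI1h-23h-F against MI24h-F, MI24h-F against MI24h, MI6h-18h-F against MI6h_R and F against no F. That fit leaves 1 library each in Sham and MI1h_R, so its counts are not given here. The cause of these shifts was not tested. The Tgfb2 share was 20.3 percentage points above Sham with counts in place of TPM, since counts are not per length.

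Leaving out 1 library at a time gave 6 to 9 members called in MI24h, 6 to 6 in MI1h_R and 5 to 8 in MI6h_R against Sham, 0 to 2 in MI1h_R against MI24h, 0 to 1 in MI1h_R against MI6h_R and in MI1h-23h-F against MI24h-F, and 3 to 4 for F against no F. The share of all genes called was not taken in these fits. Against Sham, other scalings turned the signs of Tgfb3, Smad7, Acvr1 and Amotl2. Values of members that were not called also changed sign elsewhere, and without the 5 libraries Tgfbr2 (MI24h −0.05, MI6h_R −0.13) and Smad3 (MI1h_R −0.13, MI6h_R −0.08) did so against Sham. Tgfb3 against Sham was at 0.64 (MI1h_R) and 0.14 (MI6h_R) with library size alone, at 0.56, 0.75 and 0.47 (MI24h, MI1h_R, MI6h_R) with log2(TPM + 1) and at 0.59, 0.79 and 0.50 with log2(TPM + 0.1). Smad7 in MI1h_R was at 0.73, 0.73 and 0.84 under these 3 settings. Acvr1 was at 0.23, 0.23 and 0.16, then 0.44, 0.32 and 0.46, then 0.48, 0.35 and 0.49, and Amotl2 in MI1h_R at 0.19, 0.29 and 0.30.

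The replicate block gave 7, 6 and 6 members against Sham, and 0 in MI1h_R against MI24h and in MI1h-23h-F against MI24h-F. Of 11572 genes, 1958 rose and 2075 fell in MI24h against Sham, 1953 and 2121 in MI1h_R, 2084 and 2208 in MI6h_R, and 0 and 2 in MI1h_R against MI24h. In MI1h-23h-F against MI24h-F they were 56 and 180 of 11364. The numbers did not pair the libraries: of 20 same-number pairs 5 had a correlation of deviations over 0.1 (range −0.50 to 0.30), and 1 of 21 libraries was most like its own number. No paired analysis was possible because the F groups and the groups without F share no replicate number, for the comparisons of F with no F.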
